A study of Mus musculus with 12 samples.

Results

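The genes described here are the 37 transcripts of fatty acid oxidation and ketone body metabolism, out of 17714 genes measured in mouse liver. They were taken by name as the enzymes, carriers and regulators of the mitochondrial and peroxisomal pathways, with earlier results of these data known but by no threshold on their values, and were kept apart by compartment. Of these 37, 20 act in mitochondria, 8 in peroxisomes and 3 in both, and 6 act outside both. The 6 are Ppara and Ppargc1a, which control the pathway's genes in the nucleus, and Slc22a5, Acsl1, Acot1 and Vnn1.

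The question was how these transcripts differ between livers of mice that lack Lcorl in the whole body (KO) and livers of wild-type mice (WT). All 12 mice were female, 3 weeks of age and at weaning, with 6 KO and 6 WT. The labels name no other treatment, and the strain, the way the allele was made and the feeding state are not given. Livers were taken at about 10 in the morning and frozen. Each library came from an animal with its own number. Replicate numbers below (WT 1 to WT 6, KO 1 to KO 6) only name the livers.

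In the liver, long-chain fatty acids are activated to acyl-CoA, passed into mitochondria as carnitine esters and shortened by rounds of dehydrogenation, hydration, a further dehydrogenation and thiolysis. The acetyl-CoA released feeds the citrate cycle or is turned into ketone bodies, the fuel that the liver exports during suckling and fasting. Peroxisomes shorten very-long-chain and dicarboxylic fatty acids with a separate set of enzymes and hand the shortened chains to mitochondria as carnitine esters. The nuclear receptor encoded by Ppara, paired with a retinoid X receptor, is known to drive genes of both routes.

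Depth ran from 21769795 to 28655120 reads per WT library and from 27692285 to 31296485 per KO library. Lcorl averaged 275 ± 26.5 normalized counts over the WT livers and 0.471 ± 1.15 over the KO livers (SD, 6 per genotype), and it was 0 in 5 of the 6 KO livers and 2.83 in KO 5. Hepatocyte markers were high in every liver, with a summed level of 3664587 to 3976873 normalized counts in WT and 3211704 to 4158898 in KO, and 0 of the 8 passed the test. WT 6 carried transcripts of adipose tissue. All 6 of the 6 adipocyte markers had a row, and their sum was 209 in WT 6, at most 3.53 in the other WT livers and 1.70 to 3.11 in KO, with Adipoq, Retn and Lep at 0 in every KO liver. KO 2 alone held Reg1, a gene of the exocrine pancreas, at 126 normalized counts, and the other 11 livers were at 0. The only other pancreas marker with a row, of 5 listed, was Cela1, an elastase, which fell in KO without overlap (log2 fold change −1.12, limma adjusted p = 0.00533). Of the stellate cell and fibroblast markers 0 of 5 passed the test, and all 5 had lower mean log2 values in KO, with sums of 17794 to 25201 in WT and 10989 to 21778 in KO. The erythroid markers likewise had 0 of 5 past the test and all 5 lower in KO by mean log2 value (median −0.79), with sums of 7537 to 39559 in WT and 6543 to 22457 in KO. What these other cells contributed to the results below was not tested, and where leaving out WT 6 changes the call of one of the 37 genes both values are given. In whole liver, fewer cells of a type and less RNA per cell cannot be told apart.

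All 37 genes passed the minimum mean of 10 normalized counts. Of them 3 rose in KO, namely the acyl-CoA dehydrogenases Acadm and Acadl and the carnitine acetyltransferase Crat, none fell, and 34 did not pass the test (limma, Benjamini-Hochberg adjusted p under 0.05 over 13569 genes). The background is 1.75% of all genes tested for a rise and 4.43% for a change in either direction, against 8.11% of the 37 that rose. By sign alone, 30 of the 37 had a higher mean log2 value in KO and 7 a lower one, while 7029 of the 13569 genes tested had a higher one. The median log2 fold change of the 37 was 0.13, within a range of −0.42 to 0.79, and that of all genes tested was 0.0075. At an unadjusted p under 0.05 there were 10 of the 37, or 27.03%, and 23.4% of all genes tested, so that share lay near the background.

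**Figure D1:**
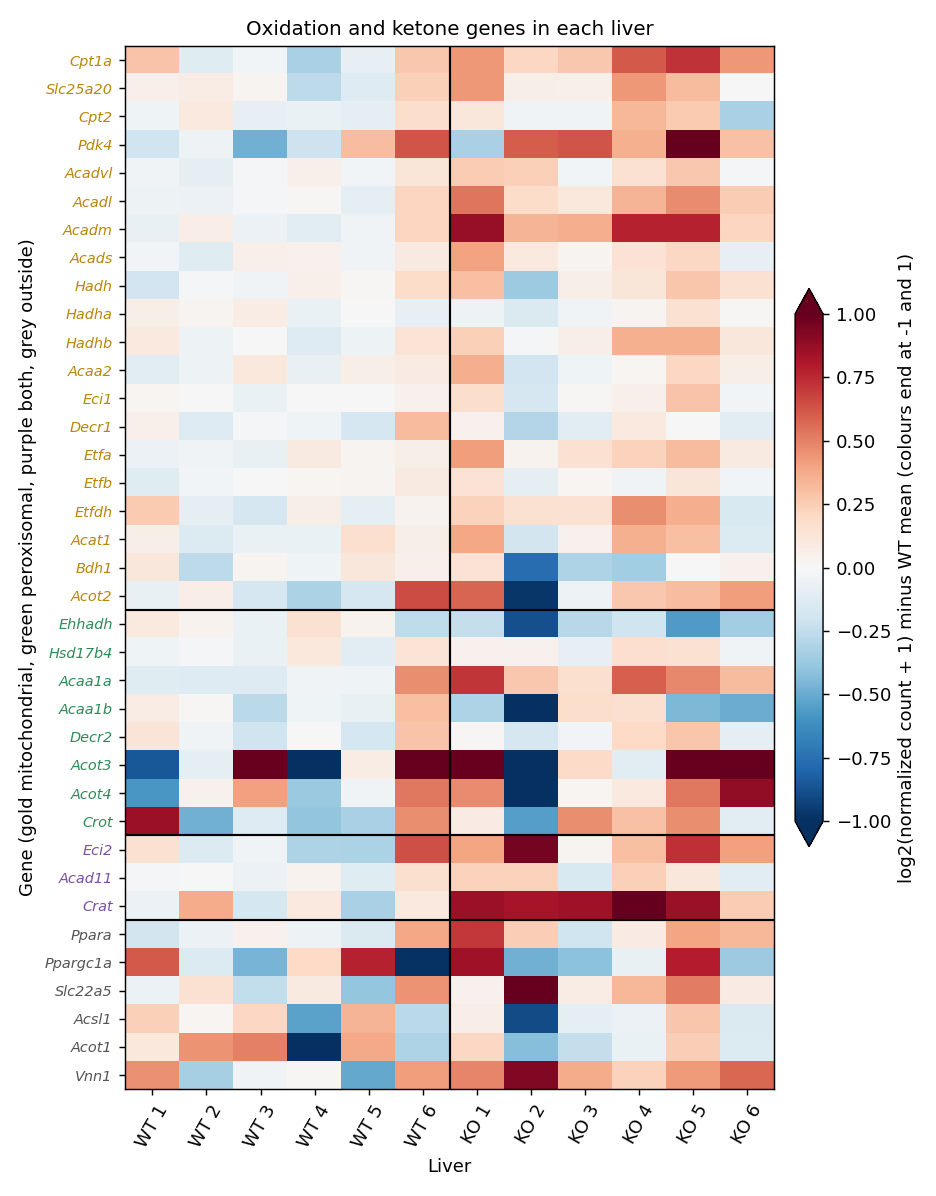
Rows are the 37 genes grouped by compartment, columns are the 12 livers, and colour gives log2(normalized count + 1) minus the WT mean of that gene. The KO columns hold more red than blue among mitochondrial genes, WT 6 stands out among the WT columns, and KO 2 is blue for most peroxisomal genes.

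The compartments were then read apart. Of the 20 mitochondrial genes, 2 rose and none fell, 17 had a higher mean log2 value in KO and 3 a lower one, and the median log2 fold change was 0.13. Of the 8 peroxisomal genes none passed the test in either direction, 6 had a higher value and 2 a lower one, and the median was 0.08. Of these 8, 2 had an unadjusted p under 0.05, one in each direction. With DESeq2, run on reads recovered from the deposited values, 2 of the 8 passed, Acaa1a higher and Ehhadh lower, with 8.68% of all genes called. Among the 3 genes of both compartments Crat rose, and among the 6 outside both none passed the test with limma, 1 of them having an unadjusted p under 0.05. The difference between the compartments as groups was not tested.

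Acadm, Acadl and Crat carry the calls. Acadm encodes the medium-chain acyl-CoA dehydrogenase, which starts each round on medium-length chains. It measured 6448, 6768 and 8107 normalized counts in the lowest, median and highest WT liver, and 8110, 10434 and 12753 in KO. The groups did not overlap, but the lowest KO liver, KO 6, and the highest WT liver, WT 6, were almost level. Acadm rose 1.47-fold (log2 fold change 0.55, SE 0.12, 95% interval 0.30 to 0.80, limma adjusted p = 0.0212). It was the only one of the 37 genes without overlap, which is 2.70% of them against 2.96% of all genes tested.

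Acadl encodes the long-chain acyl-CoA dehydrogenase. Its values were 6257, 6551 and 7759 normalized counts in WT and 7218, 8231 and 9717 in KO for the lowest, median and highest liver. The groups overlapped, since WT 6 lay above KO 2 and KO 3, and the other 4 KO livers were above every WT liver. Acadl rose 1.25-fold (log2 fold change 0.32, SE 0.08, 95% interval 0.14 to 0.49, limma adjusted p = 0.0465). When mice with close animal numbers were fitted as blocks (called the block below), the limma adjusted p was 0.0871 for Acadm and 0.123 for Acadl, and 1.16% of all genes tested were called. The log2 fold changes with the block were 0.59 for Acadm and 0.34 for Acadl. WT 2 and WT 3 shared a block that held no KO liver, so they added nothing to the genotype estimate there. The gap in animal numbers between WT 3 and KO 2 only just met the limit of 10 that separates blocks. A higher limit would have put WT 2 and WT 3 in a block with KO livers, and none was fitted. The Acadm call was also lost without WT 1, WT 3 or KO 4, at adjusted p of just over 0.05, 0.0539 and 0.0561, and the Acadl call without any of WT 1 to WT 5, KO 1, KO 4 or KO 5, at 0.0782 to 0.0982 (limma).

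Crat encodes carnitine acetyltransferase, which moves acetyl groups between coenzyme A and carnitine in mitochondria and peroxisomes. It measured 554, 702 and 896 normalized counts in the lowest, median and highest WT liver and 828, 1250 and 1491 in KO. Only KO 6 reached into the WT range, where it lay below WT 2, and the other 5 KO livers were above every WT liver. Crat rose 1.73-fold (log2 fold change 0.79, SE 0.14, 95% interval 0.49 to 1.09, limma adjusted p = 0.00801), the largest log2 change among the 37. Its adjusted p was 0.0459 with the block, and at most 0.0246 when any single liver was left out.

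In GENCODE M21 on GRCm38, which shares its coordinates with mm10, all 3 are protein-coding genes on the minus strand. Acadm spans chromosome 3 from 153922357 to 153944632, Acadl chromosome 1 from 66830839 to 66863277, and Crat chromosome 2 from 30400471 to 30415813. The 250 bases before the start site are printed for Acadm and Acadl, because both are dehydrogenases of the same step and both rose. The sequences are from RefSeq on GRCm38.p6, read 5′ to 3′ on the gene's strand, at chr3:153944644-153944893 for Acadm and chr1:66863310-66863559 for Acadl. Capitals mark the half-site AGGTCA of nuclear receptors read on the opposite strand, found once for Acadm and not for Acadl.
Acadm: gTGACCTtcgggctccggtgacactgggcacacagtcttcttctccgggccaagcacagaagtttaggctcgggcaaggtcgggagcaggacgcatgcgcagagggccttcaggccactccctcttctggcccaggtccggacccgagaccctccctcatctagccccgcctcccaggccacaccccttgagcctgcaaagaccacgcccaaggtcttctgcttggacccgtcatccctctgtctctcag
Acadl: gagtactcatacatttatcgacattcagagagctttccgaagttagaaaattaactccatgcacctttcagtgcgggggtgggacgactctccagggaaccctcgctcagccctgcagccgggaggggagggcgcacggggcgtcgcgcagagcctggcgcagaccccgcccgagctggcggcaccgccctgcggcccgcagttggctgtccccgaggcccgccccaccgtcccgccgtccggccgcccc

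The stretch is rich in G and C in both, with 64.0% for Acadm and 68.0% for Acadl. The half-site of Acadm lies at −249 to −244 from the start. A half-site on either strand was found in the same window of 4 of 34 promoters of the 37 genes (11.8%) and of 14.0% of 32851 promoters in the table.

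The element bound by the Ppara receptor with its partner is this half-site repeated in the same orientation with 1 base between the copies. It was searched on both strands from 250 bases before to 50 after the start, allowing 2 mismatches over both copies. It was found for 3 of the 31 genes with an entry (9.68%) and for 4.40% of all 27025 genes with one. The 3 are printed because no other promoter of the set held a match. Capitals mark the matched letters, each with 2 mismatches, shown with up to 20 neighbouring bases before the start and none after it. They lie at chr9:55512288-55512340 (−77 to −65 for the match, gene on the minus strand) for Etfa, at chr9:108662142-108662154 (6 to 18, plus strand) for Slc25a20, and at chr12:84038346-84038378 (−13 to −1, plus strand) for Acot4.
Etfa: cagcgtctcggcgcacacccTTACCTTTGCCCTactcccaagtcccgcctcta
Slc25a20: AGGTGAAAGGTCG
Acot4: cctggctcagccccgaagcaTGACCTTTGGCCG

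None of these 3 genes passed the limma test. Their log2 fold changes were 0.21 for Etfa (adjusted p = 0.108), 0.22 for Slc25a20 (0.218) and 0.14 for Acot4 (0.825). A match is a description of letters in this window only.

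Entry into mitochondria runs through 3 of the genes. Cpt1a, the carnitine palmitoyltransferase of the outer membrane and the controlled step that malonyl-CoA inhibits, measured 7398, 8952 and 11302 normalized counts in the lowest, median and highest WT liver and 10714, 12540 and 15307 in KO. WT 1 and WT 6 reached into the KO range, and 4 KO livers were above every WT liver. The log2 fold change was 0.45 (SE 0.12, 95% interval 0.19 to 0.70), and its limma adjusted p of 0.0503 missed the threshold. Without WT 6 it was 0.0284, without KO 2 0.0445 and without KO 3 0.0499. Cpt1a was not called in the other 9 omissions of 1 liver, at limma adjusted p of up to 0.114, nor with the block, at 0.106. Slc25a20, the carnitine-acylcarnitine translocase of the inner membrane, had a log2 fold change of 0.22 (95% interval −0.0024 to 0.44). Cpt2, which returns the chain from carnitine to coenzyme A in the matrix, was at 0.05 (−0.16 to 0.27). Pdk4, the kinase that holds back pyruvate dehydrogenase and so favours fat as a fuel, ranged from 157 to 338 normalized counts in WT and from 175 to 610 in KO (log2 fold change 0.51, 95% interval −0.05 to 1.06, limma adjusted p = 0.257).

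**Figure D2:**
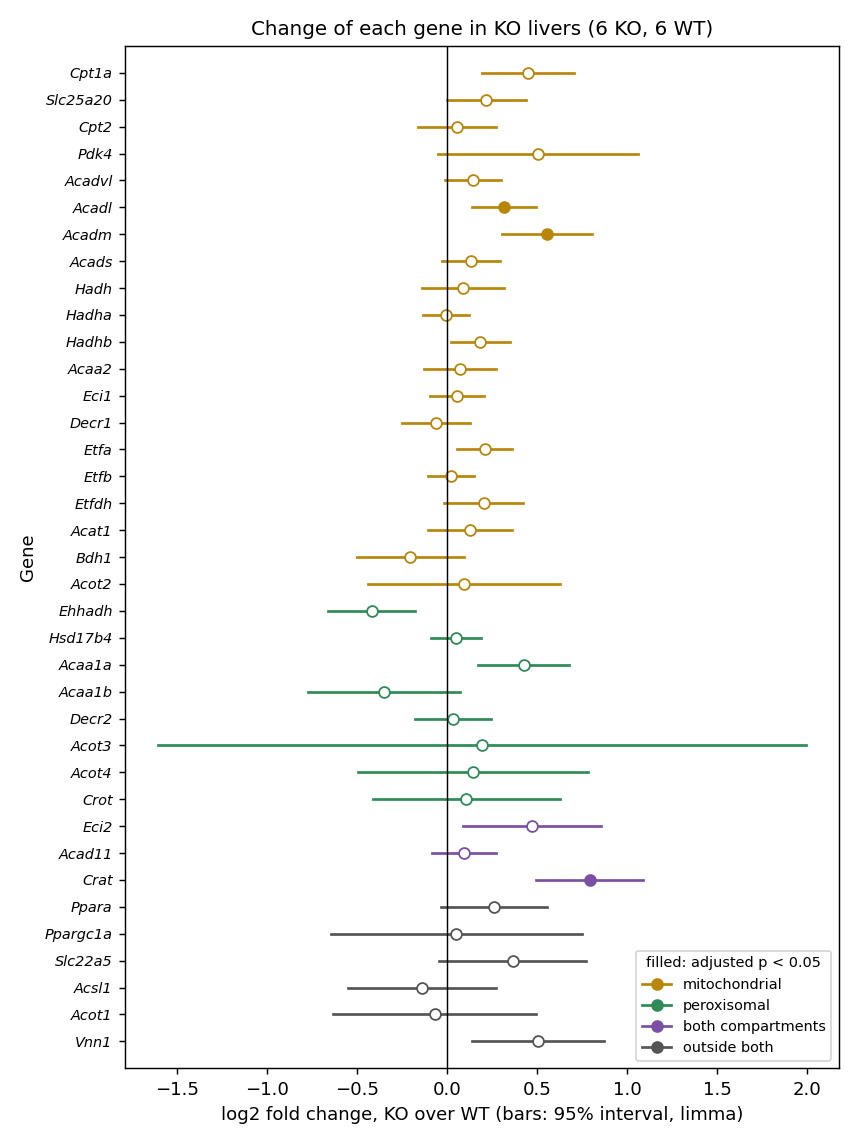
Each point is a gene's log2 fold change, KO over WT, with its 95% interval from limma, coloured by compartment, and filled points passed the adjusted threshold. The 3 filled points are Acadm, Acadl and Crat, and most open points lie a little to the right of 0.

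The shortening spiral of mitochondria holds 8 of the genes, of which Acadm and Acadl rose and 6 did not pass the test. Acadvl, the very-long-chain dehydrogenase at the inner membrane, had a log2 fold change of 0.14 (95% interval −0.01 to 0.30), and 4 of the 6 KO livers were above every WT liver. Acads, the short-chain dehydrogenase, gave 0.13 (−0.03 to 0.30), again with 4 KO livers above every WT liver. All 4 dehydrogenases that take different chain lengths thus had a higher mean in KO, and 2 of the 4 passed the test. The trifunctional protein of the inner membrane is built from Hadha, which hydrates and dehydrogenates long chains and was at −0.0067 (−0.14 to 0.12), and Hadhb, its thiolase subunit, at 0.18 (0.02 to 0.35, limma adjusted p = 0.169). Hadh, the dehydrogenase for shorter chains, was at 0.09 (−0.14 to 0.32) and Acaa2, the thiolase of the matrix, at 0.07 (−0.13 to 0.27).

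Double bonds need auxiliary enzymes. Eci1, which shifts a double bond into place in mitochondria, had a log2 fold change of 0.05 (95% interval −0.10 to 0.20) and Decr1, the mitochondrial dienoyl-CoA reductase, −0.06 (−0.25 to 0.13). The electrons of all these dehydrogenases pass through the electron transfer flavoprotein, made of Etfa and Etfb, to the oxidoreductase Etfdh. Etfa measured 11426, 11963 and 12764 normalized counts in the lowest, median and highest WT liver and 12329, 13715 and 16057 in KO, with 5 KO livers above every WT liver and 1 within the WT range. Its log2 fold change was 0.21 (0.05 to 0.36, limma adjusted p = 0.108). Etfb, its partner subunit, was at 0.02 (−0.11 to 0.15) and Etfdh at 0.20 (−0.02 to 0.42).

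For ketone bodies, neither gene of the set passed the test. Acat1, the mitochondrial thiolase that joins acetyl-CoA units to acetoacetyl-CoA, ranged from 10463 to 12849 normalized counts in WT and from 10131 to 15012 in KO (log2 fold change 0.13, 95% interval −0.11 to 0.36, limma adjusted p = 0.522). Bdh1, which reduces acetoacetate to hydroxybutyrate, ranged from 8934 to 11588 in WT and from 6314 to 11849 in KO (−0.20, −0.50 to 0.09, adjusted p = 0.402, limma). Both KO ranges enclosed the WT range.

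In peroxisomes, the genes of the spiral differed in sign. Ehhadh, the bifunctional enzyme that hydrates and dehydrogenates chains and is needed for dicarboxylic acids, measured 4798, 5854 and 6339 normalized counts in the lowest, median and highest WT liver and 3109, 4594 and 4966 in KO. WT 6 was the lowest WT liver and the only one inside the KO range, where it lay below KO 1 and KO 4. The log2 fold change was −0.42 (SE 0.11, 95% interval −0.66 to −0.18) with a limma adjusted p of 0.0525, and without WT 6 it was −0.47 with 0.0304. Ehhadh was not called in the other 11 omissions of 1 liver, at limma adjusted p of up to 0.110, nor with the block, at 0.159. Hsd17b4, the other bifunctional enzyme, which serves branched and very long chains, was at 0.05 (−0.09 to 0.19).

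Acaa1a and Acaa1b encode closely related peroxisomal thiolases. Acaa1a measured 2342, 2426 and 3541 normalized counts in the lowest, median and highest WT liver and 2875, 3396 and 4212 in KO. The 5 other WT livers lay at 2505 or below, under every KO liver, and WT 6 lay among the KO livers. The log2 fold change was 0.42 (SE 0.12, limma adjusted p = 0.0586), and without WT 6 it was 0.52 with 0.00791 and without KO 3 0.48 with 0.0437. Acaa1a was not called in the other 10 omissions of 1 liver, at limma adjusted p of up to 0.129, nor with the block, at 0.182. Acaa1b measured 5930, 7064 and 8766 in WT and 3111, 5490 and 8058 in KO (log2 fold change −0.35, 95% interval −0.78 to 0.07, limma adjusted p = 0.301). The genes share 583 stretches of 50 bases, 12.4% of those of Acaa1a and 30.5% of those of Acaa1b, and the handling of reads that match both is not given, so the split between them is uncertain.

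**Figure D3:**
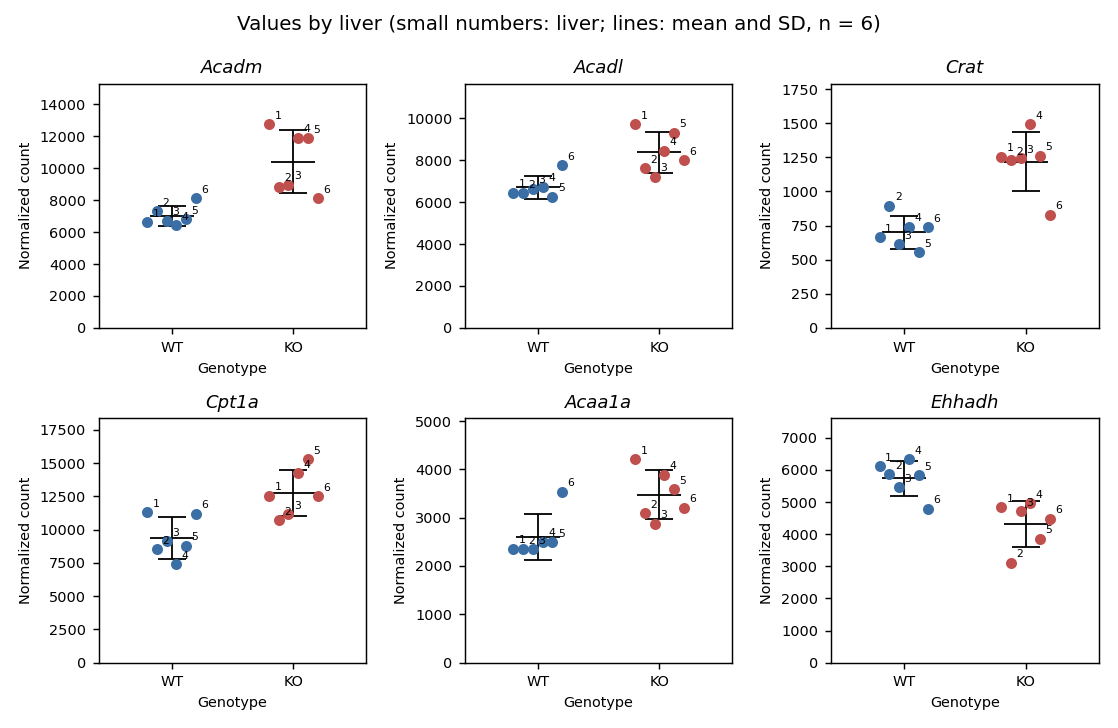
Normalized counts of 6 genes in each WT and KO liver, with the liver's number beside each point and lines for the mean and SD (n = 6). Acadm separates the groups by the narrow gap from 8107 to 8110, and WT 6 lies inside the KO range for Acadl, Cpt1a, Acaa1a and Ehhadh.

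The remaining peroxisomal genes varied widely or differed little. Decr2, the peroxisomal dienoyl-CoA reductase, had a log2 fold change of 0.03 (95% interval −0.18 to 0.24), and every KO value lay inside the WT range. Crot, which turns shortened chains into carnitine esters for export, was at 0.11 (−0.41 to 0.63), and its highest value of all 12 livers was 21305 in WT 1. The thioesterases Acot3 and Acot4 release free acids from coenzyme A. Acot3 ran from 90.5 to 934 normalized counts in WT and from 25.7 in KO 2 to 1516 in KO 6, so that its log2 fold change of 0.19 had an interval of −1.61 to 1.99. Acot4 ran from 315 to 681 in WT and from 214 to 870 in KO, with KO 2 lowest and KO 6 highest again (0.14, −0.49 to 0.78). The mitochondrial Acot2 (0.09, −0.44 to 0.63) and the cytosolic Acot1 (−0.07, −0.63 to 0.50) were near the floor of the set, at 33.7 to 106 and 17.8 to 57.6 normalized counts over all livers. Acot1 and Acot2 share 527 stretches of 50 bases, 13.6% and 24.5% of theirs, so their split is uncertain too.

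Besides Crat, 2 genes were assigned to both compartments. Eci2, an isomerase for double bonds, measured 3164, 3709 and 6145 normalized counts in the lowest, median and highest WT liver and 4016, 5205 and 7643 in KO. WT 6 was above 4 of the 6 KO livers and KO 2 was highest of all, so the groups overlapped. The log2 fold change was 0.47 (SE 0.18, limma adjusted p = 0.134), and without WT 6 it was 0.60 with 0.0356. Eci2 was not called in the other 11 omissions of 1 liver, at limma adjusted p of up to 0.239, nor with the block, at 0.280. Acad11, a dehydrogenase for long chains, was at 0.09 (95% interval −0.09 to 0.27).

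None of the 6 genes outside both compartments passed the test. Ppara measured 4732, 5180 and 7012 normalized counts in the lowest, median and highest WT liver and 4683, 6559 and 8782 in KO. Lowest of the 12 livers was a KO liver, and WT 6 was the highest WT liver. The log2 fold change of Ppara was 0.26 (SE 0.14, 95% interval −0.03 to 0.56, limma adjusted p = 0.269). Ppargc1a, a coactivator of the same programme that rises in fasting liver, measured 353, 721 and 1196 in WT and 503, 604 and 1260 in KO (0.05, SE 0.32, −0.65 to 0.75, adjusted p = 0.951 in limma). Its groups overlapped over nearly the whole range, and an interval this wide leaves changes of either sign possible.

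Slc22a5, the carnitine importer of the cell membrane, had a log2 fold change of 0.36 (95% interval −0.05 to 0.77), with 868 normalized counts in KO 2 and at most 561 in the other KO livers. Acsl1, which activates long-chain fatty acids, was at −0.14 (−0.55 to 0.27). Vnn1, the pantetheinase that recycles part of coenzyme A and a known target of Ppara, ranged from 168 to 329 in WT and from 281 to 456 in KO. In KO, 3 of 6 livers were above every WT liver (0.50, 0.14 to 0.87, limma adjusted p = 0.102).

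The deposited comparison calls more of the 37 genes than limma did. An adjusted p under 0.05 stands beside 7 of the 37 in the authors' deposited table, against a background of 8.68% of its 15243 genes with an adjusted p. The 6 higher in KO in the authors' deposited table are Crat (adjusted p = 7.47e-06), Acadm (2.79e-04), Acadl (0.00716), Cpt1a (0.0108), Acaa1a (0.0207) and Etfa (0.0412). The one lower in the authors' deposited table is Ehhadh (0.0133). All 3 genes called by limma are among the 7. DESeq2 on recovered reads called as many genes in total as the deposited table, 1323 of 15243, so the calls of both are not independent results. In 1 set of simulated counts, with 200 genes changed, 14.6% of the DESeq2 calls were false. The share of false calls among the livers themselves was not measured.

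Ehhadh and Acaa1a, at steps of one peroxisomal spiral, had opposite signs. To show this within each liver, 8 genes were each set against a mitochondrial gene for the same type of enzyme. They were the peroxisomal genes without Hsd17b4, plus Eci2, which was assigned to both compartments. Hsd17b4, the other bifunctional enzyme of peroxisomes, had a log2 fold change of 0.05. The pairs were chosen after the values had been seen, and several reuse 1 gene, so their ratios are a description with no test. The log2 ratio of Ehhadh to Hadha averaged −0.62 ± 0.14 over the WT livers and −1.04 ± 0.25 over the KO livers (SD, 6 per genotype), a difference of −0.41. All 6 KO livers lay below every WT liver. A ratio by itself shows unequal change of its members and not which of them differed. Taken singly, Hadha had a log2 fold change of −0.0067 and Ehhadh of −0.42, so this ratio largely restates the Ehhadh difference.

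The 2 thiolases of peroxisomes differed in sign against the same mitochondrial thiolase. The ratio of Acaa1a to Acaa2 was −3.26 ± 0.21 in WT and −2.90 ± 0.14 in KO, a difference of 0.35, and 2 KO livers lay above every WT liver. The ratio of Acaa1b to Acaa2 was −1.78 ± 0.22 in WT and −2.21 ± 0.49 in KO, a difference of −0.42, with 4 KO livers below every WT liver and 1 above. The split of reads between Acaa1a and Acaa1b, uncertain as given above, enters both ratios. The difference was 0.42 for Eci2 to Eci1. It ranged from 0.28 without KO 2 to 0.54 without WT 6 when 1 liver was left out, and was 0.40 without both. With all livers the difference was 0.09 for Decr2 to Decr1, 0.05 for Crot to Cpt2, 0.10 for Acot3 to Acot2 and 0.05 for Acot4 to Acot2.

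**Figure D4:**
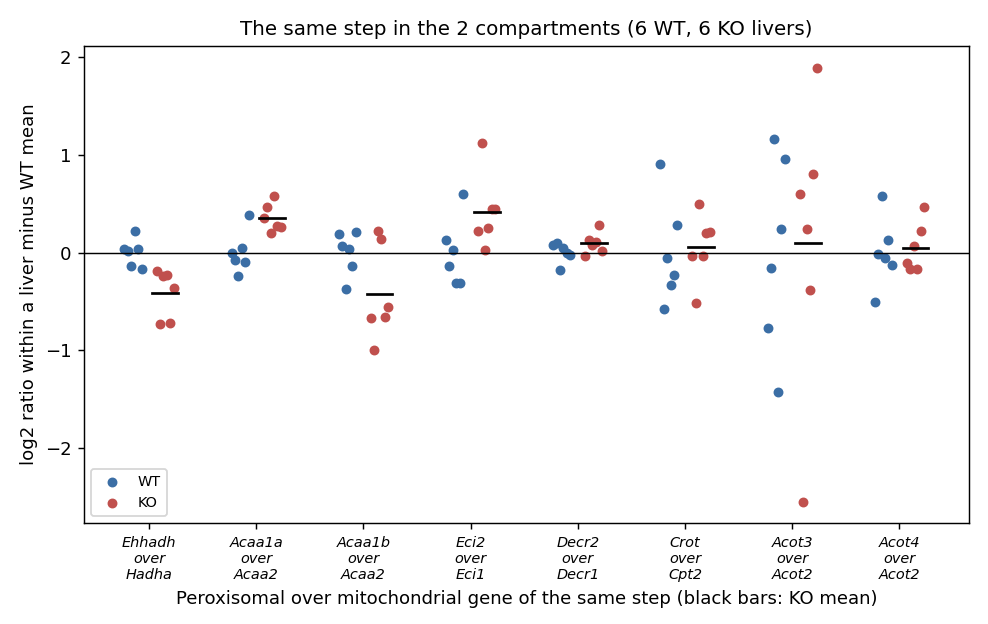
Each point is a liver's log2 ratio of a peroxisomal gene, or of Eci2, to a mitochondrial gene for the same type of enzyme, minus the WT mean. WT is in blue, KO in red, and black bars give the KO mean. Eci2 was assigned to both compartments, and Hsd17b4 is not shown. For Ehhadh over Hadha all 6 KO livers lie below every WT liver, and for Acot3 over Acot2 the spread within each group is wider than the difference between them.

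The genes also varied together from liver to liver. The median deviation from the WT mean over the 20 mitochondrial genes was 0.25 to 0.29 (log2) in KO 1, KO 4 and KO 5, but only −0.03 to 0.04 in KO 2, KO 3 and KO 6. In the WT livers it was −0.05 to −0.02 in WT 1 to WT 5 and 0.13 in WT 6. So 3 of the 6 KO livers were inside the WT range by this measure. KO 3 and KO 6 lay above WT 1 to WT 5, and only WT 6 was above them. Over the 8 peroxisomal genes the median was −0.71 in KO 2 and between −0.06 and 0.37 in the other KO livers, and 0.38 in WT 6 against −0.10 to 0.02 in the other WT livers. KO 2 was the lowest KO liver for 21 of the 37 genes, and WT 6 the highest WT liver for 23. Over all genes tested the same median lay within 0.012 of 0 in every liver.

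Without WT 6, limma called 7 of the 37 genes, Cpt1a, Acaa1a, Ehhadh and Eci2 being added to the 3, with 6.87% of all genes tested called. Without WT 6 and KO 2 together the same 7 were called, with a background of 6.73%.

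Levels between genes were compared per kilobase of merged exons, which makes genes with long rare exons look lower. In WT livers the order began with Acaa2 at a median of 16245 normalized counts per kilobase (14948 to 17406), followed by Etfb at 7585 (6933 to 8015), Etfa at 6520 (6227 to 6956) and Acadvl at 4923 (4679 to 5417). The first 2 do not overlap, while Etfb and Etfa overlap at their edges. Then came Acaa1b at 3600 (3023 to 4468) and Acadl at 3267 (3121 to 3870), whose ranges overlap, so their order is not resolved. Acadm was 15th of the 37 at 1729 (1648 to 2072) and Crat 29th at 130 (103 to 166). The lowest were Acot2 at 28.0 (24.4 to 48.2) and Acot1 at 12.3 (4.55 to 14.7). In KO, Crat reached 232 (154 to 277) per kilobase and Acadm 2666 (2073 to 3259).

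**Figure D5:**
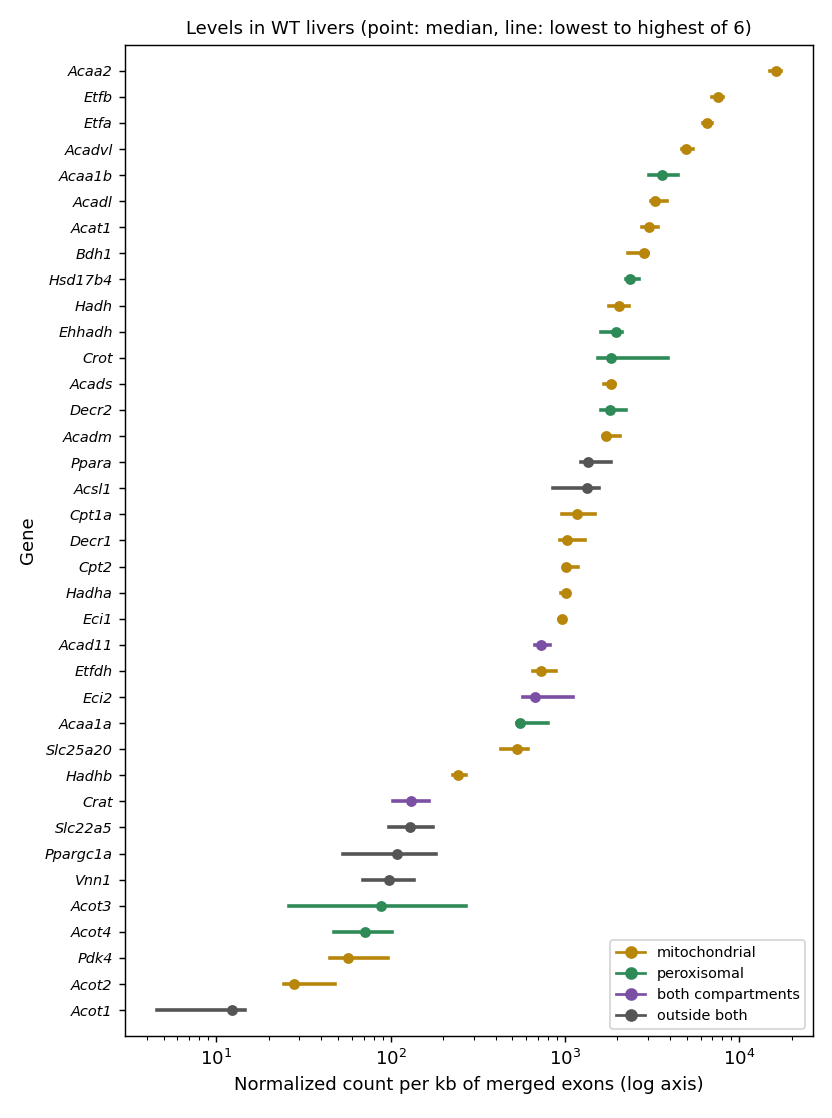
Normalized count per kilobase of merged exons in WT livers on a log axis, with points for the median and lines from the lowest to the highest of 6 livers, coloured by compartment. Acaa2 is highest at 16245 and Acot1 lowest at 12.3, and the genes of both compartments are mixed along the order.

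Other genes of the same pathways were read from the same fit. As background for these lists, the share of all genes called was 4.43% in the main fit, 8.68% with DESeq2 and 6.35% with library quality weights. It was 1.16% with the block, 6.73% without WT 6 and KO 2 together, and 1.65% to 6.87% when 1 liver was left out. It was 3.05% with no filter, 3.96% with equal totals, 4.12% with robust moderation and 4.13% with edgeR. Of 20 further mitochondrial genes, 2 rose, none fell and the median log2 fold change was 0.14. Ivd, the isovaleryl-CoA dehydrogenase of leucine breakdown, rose 1.46-fold (limma adjusted p = 0.0301) with all 6 KO livers above every WT liver. Mlycd, which removes malonyl-CoA, rose 1.16-fold (limma adjusted p = 0.0482). The next by p were Acad10, an acyl-CoA dehydrogenase relative, at a log2 fold change of 0.51 (0.0530) and Hsd17b10, a mitochondrial dehydrogenase, at 0.41 (0.0895). Neither rise was called with the block, at limma adjusted p of 0.143 for Ivd and 0.196 for Mlycd, nor without single livers. Those were WT 1, WT 2, WT 3, WT 5, KO 2 and KO 4 for Ivd, at up to 0.0702, and every liver but WT 6 and KO 6 for Mlycd, at up to 0.106. DESeq2 called 4 of the 20, and limma with no filter, equal totals or robust moderation 1. Leaving out 1 liver gave 0 to 3.

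Of the 18 further peroxisomal genes tested, out of 19 listed, 1 rose and 2 fell, and the median log2 fold change was −0.07. Nudt7, which degrades coenzyme A in peroxisomes, measured 4402, 5632 and 6679 normalized counts in the lowest, median and highest WT liver and 1869, 1996 and 3306 in KO, without overlap. It fell 2.52-fold (limma adjusted p = 9.95e-04, and 0.00505 with the block). Abcd3, a carrier that brings acyl chains into peroxisomes, fell 1.33-fold with all 6 KO livers below every WT liver (limma adjusted p = 0.0242, and 0.111 with the block). Ech1, a dienoyl-CoA isomerase, rose 1.37-fold (limma adjusted p = 0.0173, and 0.0823 with the block). Lonp2, a peroxisomal protease, was at −0.32 (0.0557), also without overlap. Nudt19, of the same list, was higher in KO without overlap, at a log2 fold change of 0.48 (limma adjusted p = 0.0618). In all, 4 of the 18 had no overlap (22.2%, against 2.96% of all genes tested). The list was chosen with earlier results of these data known, so this share is a description only. The call of Abcd3 was lost without WT 2, WT 4, KO 1 or KO 4, at up to 0.0564. The count of 3 was 5 without WT 6, 5 without KO 6, 8 without WT 6 and KO 2 together, 6 with DESeq2 or with library quality weights, and 1 with the block. Leaving out 1 liver gave 2 to 5.

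None of 16 peroxisome assembly genes passed the limma test, with 2 of them at an unadjusted p under 0.05 and a median log2 fold change of −0.000825. The nearest was Pex11a, which promotes division of peroxisomes, at −0.39 (adjusted p = 0.0993, limma), and it was called without KO 5.

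Known Ppara targets outside oxidation did not share a direction. Of 19 tested out of 21, 2 rose and 2 fell. The fatty acid omega-hydroxylases Cyp4a14 and Cyp4a32 rose 2.68-fold and 2.55-fold (limma adjusted p = 0.0203 and 0.0114). Fabp1, the fatty acid binding protein of the liver, fell 2.25-fold, and Mgll, the monoglyceride lipase, fell 1.45-fold (limma adjusted p = 0.0216 and 0.00928). With the block none of these 4 passed, at limma adjusted p of 0.0613 to 0.121. The calls of Cyp4a14 and Fabp1 were also lost without single livers, Cyp4a14 without WT 3 or WT 5 and Fabp1 without WT 3, WT 5, KO 1 or KO 4, at up to 0.0529 and 0.0564. The count of 4 was 2 without WT 3 or WT 5, and 7 with DESeq2 or with library quality weights. Leaving out 1 liver gave 2 to 6. Among 18 other regulators 1 rose, the nuclear receptor Pparg, by 1.82-fold (limma adjusted p = 0.0244, and 0.115 with the block). Its call was lost without WT 1, WT 2, WT 3, WT 5, KO 1 or KO 4, at up to 0.0594. The count of regulators was 2 without WT 6, KO 5 or KO 6, without WT 6 and KO 2 together, and with DESeq2. The next were Esrra at a log2 fold change of 0.40 (0.0583), Lpin1 at −1.76 (0.1000) and Sirt1 at 0.46 (0.111).

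Genes that set malonyl-CoA, the inhibitor of Cpt1a, passed the test in 5 of 5 cases, against 4.43% of all genes tested. This list was chosen with earlier results of these data known, so the count is a description only. Acacb, the acetyl-CoA carboxylase of the mitochondrial outer membrane, measured 670, 2269 and 3752 normalized counts in the lowest, median and highest WT liver and 118, 241 and 694 in KO. Only the lowest WT liver lay below the highest KO liver, and Acacb fell 8.66-fold (limma adjusted p = 0.00317, and 0.0354 with the block). Acaca, the cytosolic carboxylase, fell 2.67-fold without overlap (limma adjusted p = 0.00442, and 0.0388 with the block). Acly, which supplies acetyl-CoA, fell 3.32-fold (limma adjusted p = 0.0234, and 0.121 with the block). Mid1ip1, which activates the carboxylases, fell 1.91-fold (limma adjusted p = 0.0495, and 0.218 with the block), and Mlycd rose as given above. The Acly call was lost without any one of WT 1, WT 2, WT 3, WT 5, KO 1 and KO 4, at limma adjusted p of up to 0.0576, and that of Mid1ip1 without any liver but WT 6 and KO 6, at up to 0.113. The count of 5 was 3 with no filter, equal totals, robust moderation or edgeR. Leaving out 1 liver gave 2 to 5.

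Among 8 tested genes of ketone and carnitine transport, Slc16a6, an exporter of ketone bodies from the liver, measured 236, 455 and 707 normalized counts in the lowest, median and highest WT liver and 133, 190 and 235 in KO. The groups did not overlap, and Slc16a6 fell 2.43-fold (limma adjusted p = 0.0158, and 0.0707 with the block). The others did not pass, the nearest being the monocarboxylate carriers Slc16a7 at a log2 fold change of 0.50 (0.0627) and Slc16a1 at −0.40 (0.0958), and Aldh9a1, an enzyme of carnitine synthesis, at −0.27 (0.103). The count of 1 was 3 without WT 6 or with DESeq2, 2 without KO 3, without KO 6, or without WT 6 and KO 2 together, and 0 with the block.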

How the data were processed

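Total RNA sequencing of 12 livers was analysed, grouped by the labelled genotype. Named without a role or version, per the submitters' processing notes, are the tools FastQC, STAR, featureCounts and DESeq2 and the genome mm10. Neither annotation nor strand setting is given there. The expression signal deposited by the authors consists of normalized counts, reads divided by 1 factor per library. The authors also deposited a log2 fold change (shrunken, not printed here) with p-values per gene. Deposited values were whole multiples of each library's smallest value (100% within a tolerance of 0.001 reads). This gave the depth, 21769795 to 31296485 reads per library, and each of the 37 genes held at least 14 reads in every library.

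limma 3.58.1 (R 4.3.3) was fitted with a mean-variance trend to log2(normalized count + 1), with genotype as the only term, over the 13569 genes whose mean was at least 10. Two-sided p-values were adjusted by Benjamini and Hochberg at a threshold of 0.05. This scale understates changes of low genes. Blocks were runs of animal numbers without a gap of 10 or more, which the labels do not call batches. The members and lists were chosen with earlier results of these data known. All 37 members are named, with full values for those past the threshold and for Ppara, Ppargc1a and Cpt1a. Each other list adds at most the 4 genes of smallest p, except that Nudt19 is also named for its lack of overlap.

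Alternatives changed the pseudocount (0.5, 10), the filter (none, 50), the scaling (totals, upper quartiles), the moderation (robust) or the weights (library quality). Others used edgeR 4.0.16 or DESeq2 1.42.0 on recovered reads, the block, or left out 1 liver. The omission of WT 6 with KO 2 was added after seeing the data. Positions are from GENCODE M21 and promoters from RefSeq (GRCm38.p6). In simulated counts for 13569 genes, 200 of them changed, limma found 7.46% of the 1.25-fold, 37.3% of the 1.5-fold and 86.4% of the 2-fold changes. Of the calls in this 1 simulated set, 0% were false with limma, 2.20% with edgeR and 14.6% with DESeq2.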

Additional observations from a re-analysis of the deposited data

Results flagged for a closer look

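In 5 of the 74 groups of 6 livers formed by the 37 genes and both genotypes, 1 liver stood apart from the other 5 by a gap that, over the group's range, exceeded Dixon's 95% critical value for 6 samples. Chance alone picks about 1 in 20 such groups, and genes within a liver are not independent. WT 6 was that liver in 4 groups, each time as the highest. It held 3541 normalized counts of Acaa1a, with the next WT liver at 2505. For Ppara it held 7012 with the next at 5545, for Acadl 7759 with the next at 6741, and for Acot2 106 with the next at 70.0. KO 2 was the liver in the remaining group, with 868 normalized counts of Slc22a5 against 561 in the next KO liver.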

How the results depend on the processing

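No paired analysis was possible because the labels give each animal a number of its own and pair no animals between the genotypes. Of the 37 genes, 3 were called; quality weights called 6 (6.35% of all genes), DESeq2 7, the block of animal-number runs 1, and omission of WT 6 and KO 2 together 7. Leaving out single livers gave 1 to 7 (1.65% to 6.87% of all genes), with 1 without WT 1, WT 3 or KO 4, 5 without KO 3 and 7 without WT 6. For the 2 mitochondrial calls, no filter, equal totals, robust moderation and edgeR each gave 1, DESeq2 4, the block 0 and single livers 0 to 3. For the 0 peroxisomal calls (limma, 2 at an unadjusted p under 0.05, 0 with edgeR), quality weights, DESeq2 and omission of both livers each gave 2, and single livers 0 to 2. The 1 gene without overlap (2.96% of all genes tested in the main setting) became 0 with equal totals, 6 without both livers and 1 to 4 without single livers. The share over all genes was not counted under these changed settings, and any gene separates more easily with fewer livers. These counts are therefore no result about the 37 genes. The causes were not tested; fewer samples enter where livers are left out, and all genes called under the block were 158 against 601.

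Among 887 values of the 37 genes under 24 settings, 34 in 11 genes had the other sign and 26 genes kept 1 sign; all these values were near 0 or wide. With the block, the log2 fold change was 0.037 for Acsl1, 0.038 for Hadha, −0.0096 for Decr2 and 0.33 for Acot1. It was 0.0072 for Hadha with equal upper quartiles. Without both livers it was −0.041 for Ppargc1a, 0.0042 for Hadha and 0.047 for Decr1. Without single livers it ranged from −0.15 to 0.20 for Ppargc1a, −0.25 to 0.010 for Acsl1, −0.0028 to 0.13 for Cpt2, −0.038 to 0.021 for Hadha, −0.10 to 0.0012 for Decr1, −0.0035 to 0.044 for Etfb, −0.0049 to 0.31 for Acot2, −0.016 to 0.090 for Decr2, −0.23 to 0.93 for Acot3, −0.0046 to 0.40 for Acot4 and −0.30 to 0.031 for Acot1. The ratios ranged from −0.063 to 0.23 for Crot to Cpt2, −0.26 to 0.63 for Acot3 to Acot2 and −0.051 to 0.17 for Acot4 to Acot2. Scaling moved the median of all genes tested from 0.0075 to −0.01 (equal totals) or 0.02 (upper quartiles). By the simulated counts, most changes of 1.25-fold and many of 1.5-fold go undetected at this depth and number of livers.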
